A study of Mus musculus with 15 samples.

Results

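The colony-stimulating factors and their receptors are a family of 8 mouse genes here, namely the ligand genes *Csf1*, *Csf2* and *Csf3* and the receptor genes *Csf1r*, *Csf2ra*, *Csf2rb*, *Csf2rb2* and *Csf3r*. They were chosen by symbol, from among the 78317 gene identifiers in the deposited table of counts, and all 8 were found there. The family was proposed after its levels in these libraries were known, so the counts and tests given for it describe these libraries and are not independent support for any pattern.

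*Csf1* encodes M-CSF, the factor that keeps macrophages alive and drives their differentiation, and its receptor is the tyrosine kinase encoded by *Csf1r*. *Csf2* encodes GM-CSF, which alveolar macrophages need in order to mature and to clear surfactant. It binds an alpha chain (*Csf2ra*) paired with the common beta chain (*Csf2rb*), which signals through JAK2 and STAT5, whereas *Csf3* encodes G-CSF, the factor of neutrophil production, which binds the receptor encoded by *Csf3r*. Mice carry in *Csf2rb2* a further beta chain, which is specific for IL-3.

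The cells were MH-S, a line of murine alveolar macrophages transformed with SV40, taken from a single passage. Each of 5 groups had 3 wells, kept for 24 h. M0 cells received medium alone, M1 cells the bacterial stimulus LPS (1 µg/mL) with IFN-γ (20 ng/mL), and M2 cells the cytokine IL-4 (20 ng/mL). The other groups received microrods at 0.1 mg/mL, made of calcium phosphate (CaP_rods) or silica (SiO2_rods) nanoparticles held together by alginate and by layers of protamine and carboxymethyl chitosan, and each microrod well had its own particle batch. The dose was equal by mass and not by number, since the paper states that the microrod types differ in density and so in rods per mass. Libraries followed Smart-seq2, in which full-length cDNA is amplified without molecular identifiers or strand information. The spread within a group therefore covers wells and, for microrods, particle batches, but neither passages nor other cells.

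Total counts of the libraries lay between 8459643 and 68750050. On the second principal component 3 libraries stood apart with the lowest scores (M0 replicate 3, M2 replicate 2, SiO2_rods replicate 2), and several of the members' differences are also given without them. Among the general macrophage markers, *Cd68* (676 to 1320 CPM), *Lyz2* (322 to 2102 CPM) and *Ptprc* (65.1 to 164 CPM) were present in every library. *Adgre1*, *Itgam* and *Fcgr1* were also present in each. *Mrc1* was lower, at a median of 1.17 CPM over the 15 libraries. *Mertk* was near 0, with a median of 0.123 CPM, a minimum of 0 and 71 counts in all. Of the markers of resident alveolar macrophages, *Siglecf* (0.0489 CPM), *Marco* (0.0681 CPM) and *Chil3* (0 CPM) had a median over the 15 libraries at or near 0. *Marco* stood at 2.17 ± 0.681 CPM in M1, where it was called higher than in M0 (log2FC 4.36, adjusted p = 0.00107 by edgeR). It passed the filter on low counts through the M1 libraries alone, which already implies a difference. *Itgax*, a further such marker, was present in every library at 1.57 to 4.92 CPM. Levels are CPM, counts relative to the TMM-scaled size of a library, with means ± SD over 3 libraries.

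A gene was called changed when its adjusted p from edgeR's quasi-likelihood test, over all 16654 genes tested, was below 0.05 and its absolute log2 fold change (log2FC) above 0.5. In M1 against M0, 4 of the 8 genes were called, *Csf2* and *Csf3* higher and *Csf1r* and *Csf2rb2* lower, where 14.1% of all genes were called. The same comparison against M2 gave 4 calls (16.1% of all genes), again *Csf2*, *Csf3*, *Csf1r* and *Csf2rb2*. In both comparisons *Csf2* and *Csf3* passed the filter on low counts through the M1 libraries alone, which already implies a difference. Their calls therefore cannot be set against these shares. With at least 10 counts required in every library, 2 members were called in each comparison, *Csf1r* and *Csf2rb2*. With IL-4, 0 of the 8 genes were called (4.13% of all genes), and 0 with DESeq2. With CaP_rods, 1 gene was called, *Csf1*, which was higher than in M0 (0.654% of all genes). With SiO2_rods, 0 were called against M0 (0.264% of all genes), also with DESeq2. Between CaP_rods and SiO2_rods edgeR called 0 of the 8 genes (0.018% of all genes) and DESeq2 called 1, *Csf1* (0.0505% of all genes). At an unadjusted p below 0.05, the comparisons without an edgeR call had 1 gene (*Csf3r*) with IL-4, 1 (*Csf1*) with SiO2_rods, and 2 (*Csf1*, *Csf3*) between the microrods. The comparisons with M0 share their control libraries, as do those with M1.

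The median log2FC of the 8 genes was 1.04 in M1, 0.27 in M2, 0.02 with CaP_rods and 0.01 with SiO2_rods, each against M0. Over all genes tested, these medians were -0.01, 0.07, 0.06 and -0.02. Libraries of the groups did not overlap for 5 of the 8 genes in M1 against M0 (32.2% of all genes), 1 in M2 (15.2%), 2 with CaP_rods (17.4%) and 1 with SiO2_rods (18%). Between the microrods they did not overlap for 2 genes (8.07%), and between M1 and M2 for 4 (29.4%). The median and the counts given for M1 include *Csf2* and *Csf3*, which passed the filter through the M1 libraries alone. In bulk RNA, fewer cells with a transcript and less of it per cell cannot be told apart, which holds for every level given here.

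**Figure D1:**
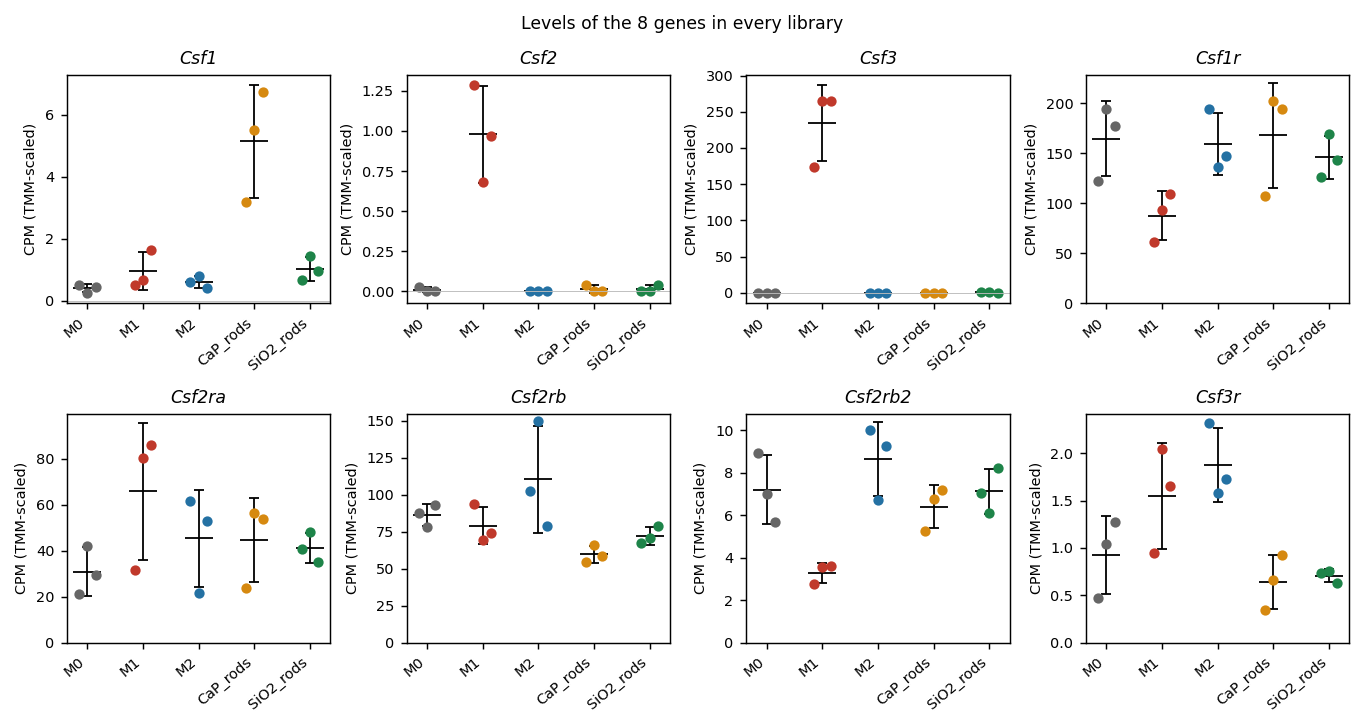
Levels of the 8 genes as CPM (y axis, a separate linear scale for each gene), with 1 point per library, grouped by treatment (x axis); the bar and whiskers are the mean and SD of 3 libraries. The 3 CaP_rods libraries are above all others for *Csf1*, and the 3 M1 libraries are above all others for *Csf2* and *Csf3* and below all others for *Csf2rb2*.

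Among the ligand genes, *Csf1* was the one called with microrods. Its promoter, here a stretch from upstream of the gene's start to just after it, in RefSeq on GRCm38.p6, lies at chr3:107760420-107760719 on the minus strand. It is shown because *Csf1* is where the CaP_rods libraries stand apart, with the match to the kappaB consensus, the sequence that NF-kB binds, in capitals.
*Csf1* promoter: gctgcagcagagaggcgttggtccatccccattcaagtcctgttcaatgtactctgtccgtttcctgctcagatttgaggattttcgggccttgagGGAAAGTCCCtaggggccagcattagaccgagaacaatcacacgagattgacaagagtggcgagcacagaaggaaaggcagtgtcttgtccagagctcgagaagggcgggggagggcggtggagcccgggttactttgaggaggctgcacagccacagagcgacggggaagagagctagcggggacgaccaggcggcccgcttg
The match starts 154 bases before the gene's start, and 4.51% of 32851 mouse promoters of the same length hold 1 or more on either strand. It overlaps 1 of 3 matches to GGAAA, the core that NFAT factors bind, which 61.3% of promoters hold. The AP-1 motif TGANTCA (7.81% of promoters) and the PU.1 core GAGGAA (28.3%) had 0 matches. A match of letters describes the sequence and does not show a site in use.

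*Csf1* had 19, 4 and 4 counts in the M0 libraries and 155, 84 and 271 in the CaP_rods libraries. These are 0.499, 0.260 and 0.463 CPM in M0 against 3.17, 5.51 and 6.74 CPM with CaP_rods. All 3 CaP_rods libraries were thus above the highest library of any other group, 1.65 CPM in M1 replicate 3. The log2FC of CaP_rods over M0 was 3.56 (SE 0.44, 95% interval 2.62 to 4.51, adjusted p = 0.00112 by edgeR), and its p ranked 19 among the 16654 genes. It was 3.58 (adjusted p = 0.00854) without the 3 libraries that stand apart. With the 6 libraries of this comparison alone the log2FC was 3.56 and the adjusted p 0.0573, so there the call was lost.

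With SiO2_rods *Csf1* had 14, 19 and 24 counts, or 0.684, 1.44 and 0.950 CPM. The SiO2_rods libraries were all above those of M0 and below those of CaP_rods. Their log2FC over M0 was 1.19 (SE 0.53, 95% interval 0.05 to 2.33), with an adjusted p of 0.582 by edgeR, and 0.98 (adjusted p = 0.846) without the 3 libraries that stand apart. CaP_rods exceeded SiO2_rods by a log2FC of 2.37 (SE 0.38, 95% interval 1.56 to 3.18), which edgeR put at an adjusted p of 0.0632 and DESeq2 at 0.00147. Without the 3 libraries that stand apart the log2FC was 2.60 and edgeR's adjusted p 0.205. This call was also made by edgeR without a filter on low counts (adjusted p = 2.60e-06), without CaP_rods replicate 1 (0.0187) and, just below the threshold, without M1 replicate 3.

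The other treatments left *Csf1* low. M1 libraries had 0.515, 0.682 and 1.65 CPM (log2FC over M0 1.09, SE 0.58, adjusted p = 0.246 by edgeR) and M2 libraries 0.613, 0.789 and 0.429 CPM (log2FC 0.28, SE 0.57, adjusted p = 0.864). The M1 libraries lay just above those of M0, and the M2 libraries overlapped with them. Ordered by its mean, *Csf1* stood at 5.14 ± 1.81 CPM with CaP_rods, 1.02 ± 0.381 with SiO2_rods, 0.949 ± 0.612 in M1, 0.610 ± 0.180 in M2 and 0.407 ± 0.129 in M0. Only the step from CaP_rods to SiO2_rods separates neighbours in this order without overlap.

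Other cell types that make M-CSF were checked beside this result. The 6 fibroblast markers summed to between 0 and 0.184 CPM with CaP_rods and between 0 and 0.231 CPM in M0, and *Col1a1* had 13 counts in all 15 libraries together. The 5 endothelial markers summed to 1.76 to 2.10 CPM with CaP_rods, 1.81 to 2.25 with SiO2_rods, 1.26 to 2.15 in M1, 1.31 to 2.45 in M2 and 0.694 to 1.23 in M0, mostly from *Vwf* (283 counts in all) and *Pecam1* (314 counts), whereas *Cdh5*, the endothelial cadherin, had 7 counts. The part of these low levels in the *Csf1* result was not tested. The 12 macrophage markers summed to 2574 to 2884 CPM with CaP_rods and 2595 to 3482 CPM in M0.

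**Figure D2:**
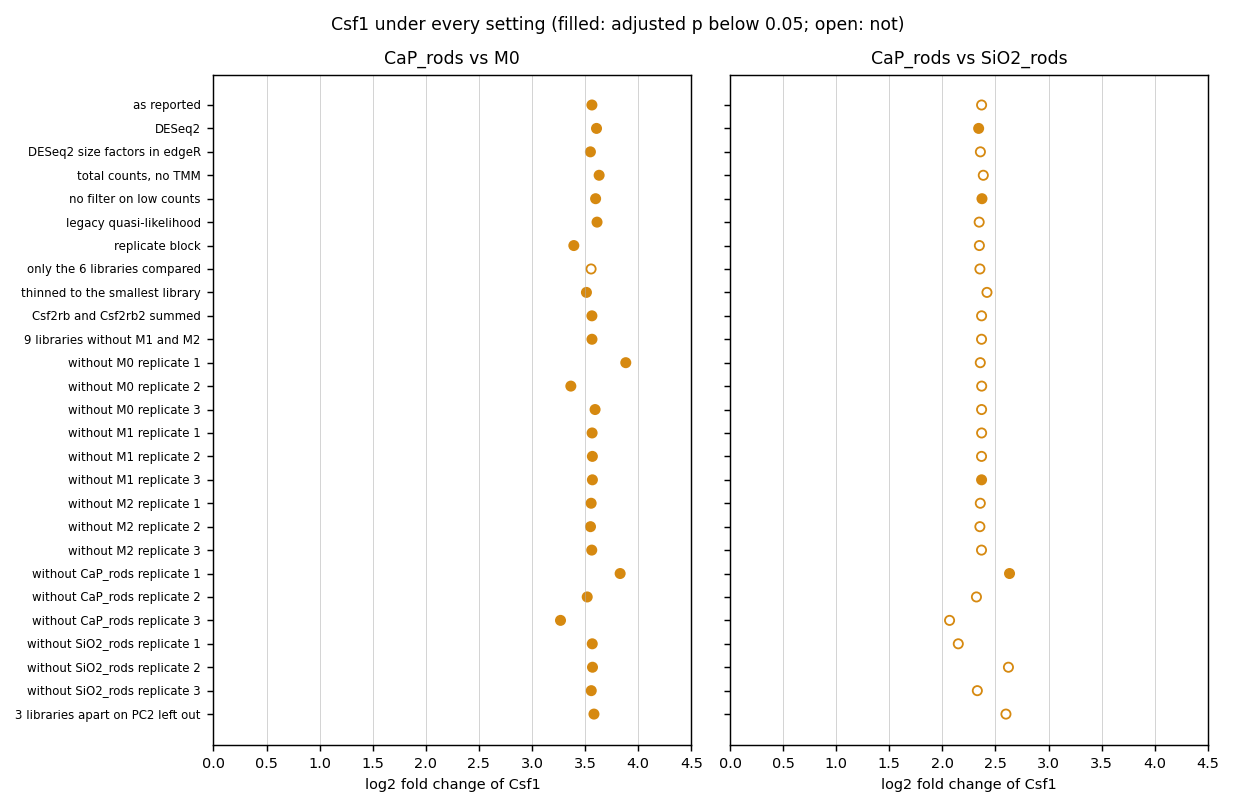
The log2FC of *Csf1* (x axis) for CaP_rods over M0 (left) and over SiO2_rods (right), 1 point per setting of the analysis (y axis), filled where the adjusted p was below 0.05. The estimate over M0 stays between 3.27 and 3.88 and is past the threshold in all settings but that with 6 libraries, whereas the estimate over SiO2_rods, 2.07 to 2.63, is past it in 4 of the 26 alternatives.

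*Csf2* and *Csf3* were nearly silent outside M1. Both transcripts end in a 3' untranslated region rich in ATTTA, the pentamer of AU-rich elements, through which mRNA decay factors shorten the life of cytokine messages. In the longest coding transcript of GENCODE on GRCm38, *Csf2* holds 9 of them in 317 bases (28.4 per kb, a density reached by 0.095% of 20962 genes) and *Csf3* 6 in 669 bases (8.97 per kb, 1.62% of genes). *Csf1* holds 4 in 2111 bases (1.90 per kb, reached by 37.5% of genes), *Csf1r* 3 in 1669 bases, and the other 4 receptor transcripts 0. The densest stretch of 30 bases is shown for both ligand genes called in M1, with ATTTA in capitals, from base 230 to 259 of the *Csf2* and base 24 to 53 of the *Csf3* untranslated region.
*Csf2*: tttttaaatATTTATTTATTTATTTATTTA
*Csf3*: gatagtttATTTAtctctATTTAatATTTA
The *Csf2* stretch holds 5 pentamers that overlap each other, and that of *Csf3* holds 3 that are apart.

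*Csf3* had 2018, 3873 and 2732 counts in the M1 libraries (173, 264 and 265 CPM) against 5, 1 and 0 counts in M0. This gave a log2FC of 11.19 (SE 0.64, adjusted p = 1.53e-09 by edgeR), and 10.97 (adjusted p = 4.40e-07) without the 3 libraries that stand apart. It was 12.26 without M0 replicate 1, which held 5 of the 6 counts in M0. M2 libraries had 0, 0 and 3 counts, and the ratio of the summed levels of M1 and M2, 8623 against 3 counts, was 7240 (95% counting interval 2480 to 35100). Its size rests on M2 replicate 3, which held all 3 counts and without which M2 was at 0, and edgeR still made the call. With CaP_rods there were 1, 0 and 9 counts and with SiO2_rods 14, 9 and 0. Single libraries of both microrod groups thus had a few counts while others had none, and the groups overlapped with M0.

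*Csf2* was much lower, with 15, 10 and 10 counts in the M1 libraries (1.29, 0.682 and 0.970 CPM). The M0 libraries held 1, 0 and 0 counts, those of M2 0 counts, those of CaP_rods 2, 0 and 0, and those of SiO2_rods 0, 0 and 1. All M1 libraries were above all others, and both *Csf2* and *Csf3* passed the filter on low counts through the M1 libraries alone, so that for them passing it already implies a difference. The M1 to M0 ratio was 59.3 for 35 against 1 count (95% counting interval 9.98 to 2410, adjusted p = 6.61e-04 by edgeR). That 1 count was in M0 replicate 1. Without this library M0 was at 0, so the size of the ratio rests on it, and the adjusted p was 0.00975. Without the 3 libraries that stand apart it was 9.52e-04. Against M2, which was at 0, *Csf2* was at least 29.4-fold higher in M1 when 3 counts over the M2 group are taken as the floor. With counts thinned to the smallest library, or with only the 6 libraries of M1 and M0, *Csf2* did not pass the filter and was not tested. Since *Csf2* overlaps the antisense gene *Gm12223* over 96 exon bases and the libraries carry no strand, reads there cannot be assigned to 1 of them.

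Per length, *Csf3* was the most abundant of the 8 transcripts in M1, at a mean of 166 CPM per kb of exon. *Csf2ra* followed with 23.0, *Csf1r* with 15.2 and *Csf2rb* with 10.9 CPM per kb, and *Csf2* stood at 1.22. In the CaP_rods libraries *Csf1*, with a mean of 0.974 CPM per kb, was near the level of *Csf2rb2* (1.35) and far below that of its receptor transcript *Csf1r* (29.1). Taking the longest transcript as the length instead gave 1.23 and 35.8 CPM per kb for *Csf1* and *Csf1r*.

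**Figure D3:**
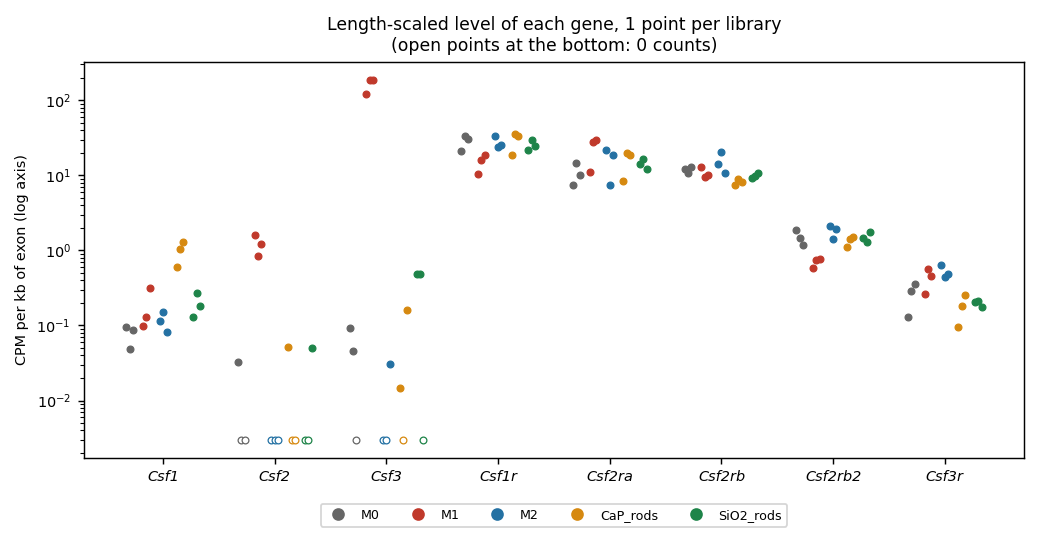
CPM per kb of exon (y axis, log scale) for each gene (x axis), with 1 point per library coloured by group; open points at the bottom are libraries with 0 counts. *Csf1r*, *Csf2ra* and *Csf2rb* are the highest in every group but M1, where *Csf3* exceeds them with 123 to 188 CPM per kb.

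Of the receptor genes, *Csf1r* was lower in M1. M0 libraries had 122, 194 and 177 CPM and M1 libraries 60.9, 93.0 and 109 CPM, so that the groups did not overlap. The log2FC was -0.90 (SE 0.28, 95% interval -1.5 to -0.31, adjusted p = 0.0438 by edgeR), close to the threshold. With total counts in place of TMM as the scale, the adjusted p was 0.0654. Without the 3 libraries that stand apart the log2FC was -0.86 and the adjusted p 0.0667. Leaving out M0 replicate 2 also ended the call (adjusted p = 0.132), as did leaving out M0 replicate 3 (0.0957), M1 replicate 1 (0.141), M1 replicate 2 (0.101) or any SiO2_rods library (0.0514 to 0.0553), although the log2FC stayed between -1.10 and -0.70.

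The same gene had 195, 137 and 147 CPM in M2, 108, 203 and 194 CPM with CaP_rods, and 126, 169 and 143 CPM with SiO2_rods. These groups overlapped with M0, at a log2FC of -0.04 (SE 0.27), 0.03 (SE 0.27) and -0.17 (SE 0.27). Against M2, *Csf1r* was lower in M1 by a log2FC of -0.86 (SE 0.28, adjusted p = 0.0493 by edgeR), which was past the threshold in 11 of 26 alternatives. *Csf1r* shares 873 exon bases with *Hmgxb3* on the opposite strand, a gene with 1937 counts over the 15 libraries against 3201 to 16151 counts per group for *Csf1r*.

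*Csf2ra*, the alpha chain of the GM-CSF receptor, had 21.1, 42.2 and 29.3 CPM in M0 and 31.4, 80.3 and 85.9 CPM in M1. The groups overlapped through M1 replicate 1, and the log2FC of 1.10 (SE 0.45) had an adjusted p of 0.126 by edgeR. Without that library it was 1.43 (adjusted p = 0.0479), and without a filter on low counts 1.10 (adjusted p = 0.00165). M2 (21.4 to 61.9 CPM), CaP_rods (23.8 to 56.7 CPM) and SiO2_rods (35.1 to 48.0 CPM) overlapped with M0, with a log2FC of 0.58 (SE 0.45), 0.54 (SE 0.45) and 0.43 (SE 0.45). All 5 groups overlapped with their neighbours in the order of the means, from 65.9 CPM in M1 to 30.8 CPM in M0.

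*Csf2rb*, the beta chain shared by the receptors for GM-CSF, IL-3 and IL-5, varied less. It had 87.3, 78.3 and 93.0 CPM in M0 and 54.6, 65.7 and 58.6 CPM with CaP_rods, which did not overlap. The log2FC of -0.53 (SE 0.21, 95% interval -0.98 to -0.09) nevertheless had an adjusted p of 0.248 by edgeR, and between 0.0654 and 0.591 in the alternatives. With SiO2_rods there were 67.2, 70.4 and 79.0 CPM (log2FC -0.25, SE 0.21), in M1 93.4, 69.6 and 74.3 CPM (log2FC -0.12, SE 0.21) and in M2 102, 150 and 78.8 CPM (log2FC 0.35, SE 0.21). These groups overlapped with M0. The highest M2 value was that of replicate 2, and without the 3 libraries that stand apart the log2FC of M2 over M0 was 0.12 (adjusted p = 0.767). Against M2, the log2FC of M1 was -0.47 (SE 0.21, adjusted p = 0.145 by edgeR), -0.67 (adjusted p = 0.0424) without M2 replicate 3, -0.29 (adjusted p = 0.185) without M2 replicate 2 and -0.20 (adjusted p = 0.469) without the 3 libraries that stand apart.

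*Csf2rb2* was lower in M1 than in every other group. Its M1 libraries had 2.75, 3.55 and 3.59 CPM against 8.94, 7.02 and 5.67 CPM in M0 and 10.0, 6.70 and 9.26 CPM in M2. No M1 library reached the lowest of M0 or M2. The log2FC was -1.16 (SE 0.25, adjusted p = 0.00686 by edgeR) against M0 and -1.41 (SE 0.25, adjusted p = 0.00134) against M2. Without the 3 libraries that stand apart these were -1.29 (adjusted p = 0.00405) and -1.55 (adjusted p = 7.11e-04), and both calls were made in all 25 alternatives in which the gene was tested. CaP_rods (5.26 to 7.17 CPM) and SiO2_rods (6.12 to 8.23 CPM) overlapped with M0.

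*Csf2rb* and *Csf2rb2* are alike enough that some reads match both, and how these were assigned is uncertain. Their longest transcripts agree in 90.8% of 4682 aligned bases, and 10.7% of the runs of 75 bases in *Csf2rb*, the length of 1 read, occur unchanged in *Csf2rb2*. *Csf2rb2* took 7.75% ± 1.82 of the reads of both genes in M0, 4.11% ± 1.09 in M1, 7.90% ± 3.23 in M2, 9.67% ± 1.09 with CaP_rods and 8.97% ± 0.844 with SiO2_rods. The M1 libraries (2.86, 4.85 and 4.61%) were below all M0 libraries (9.28, 8.23 and 5.74%), but M2 replicate 2 was at 4.28%. With both genes added up, their sum was called in none of the 6 comparisons by edgeR.

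*Csf3r* was low throughout, with 10 to 121 counts per library. M0 libraries had 0.473, 1.04 and 1.27 CPM and M2 libraries 2.32, 1.58 and 1.73 CPM, which did not overlap. The log2FC of 1.24 (SE 0.42, 95% interval 0.34 to 2.15) had an adjusted p of 0.129 by edgeR. It was 1.52 (adjusted p = 0.110) without the 3 libraries that stand apart and 0.71 (adjusted p = 0.567) without M0 replicate 1. In M1, where *Csf3* stood at 234 ± 52.8 CPM, *Csf3r* had 0.944, 2.05 and 1.65 CPM (log2FC 0.99, SE 0.46, adjusted p = 0.178). With CaP_rods (0.348 to 0.921 CPM) and SiO2_rods (0.633 to 0.755 CPM) it overlapped with M0, at a log2FC of -0.33 (SE 0.46) and -0.17 (SE 0.49).

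**Figure D4:**
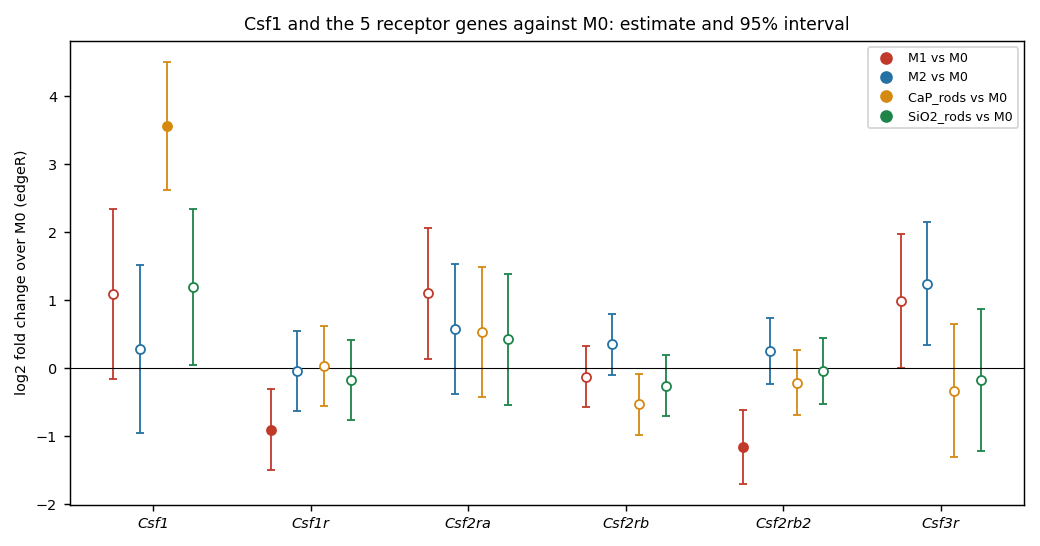
The log2FC over M0 (y axis) of *Csf1* and the 5 receptor genes (x axis) in 4 comparisons, with 95% intervals from edgeR; filled points are called. *Csf1* with CaP_rods (3.56), *Csf1r* in M1 (-0.90) and *Csf2rb2* in M1 (-1.16) are the called points, and intervals without a filled point can still lie off 0, as for *Csf3r* in M2.

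The genes whose level was most like that of each member over the 15 libraries are given as a description, since libraries of a group share their treatment. For *Csf1* they were *Rcan1*, a regulator of calcineurin (Pearson's r = 0.921), *Fblim1* (0.884) and *Rgs16* (0.839). By Spearman's rho they were *Fblim1* (0.882), *Dnase2a* (0.879) and *Akr1a1* (0.861), so *Rcan1* and *Rgs16* were not among the first 3. For the other members the genes closest by Pearson's r alone are given. For *Csf3* they were *Lcn2*, which encodes the iron-binding lipocalin-2 (0.997), the cytokine gene *Il6* (0.992) and *Zfp811* (0.987). *Csf1r* was closest to *Arhgap45* (0.945), *Laptm5* (0.944) and *Igfbp4* (0.943), and *Csf2rb2* to *Ralb* (0.946), *Tob1* (0.926) and *Hadh* (0.910). *Csf2ra* was closest to *Bop1* (0.979), *Slc6a12* (0.974) and *Dolpp1* (0.970), *Csf2rb* to *Fam69a* (0.967), *Eif4e3* (0.935) and *Magt1* (0.906), and *Csf3r* to *Pirb* (0.894), *Slc25a12* (0.893) and *Sla* (0.879). For *Csf2*, at 0 in most libraries, the closest was an unnamed gene, followed by *Urah* (0.983).

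Other ligands and chains of these receptors were near or at 0. *Il3* and *Il5* had 0 counts in every library. *Il34*, the other ligand of CSF1R, had means of 0.268 CPM in M0, 0.306 in M1, 0.330 in M2, 0.567 with CaP_rods and 0.611 with SiO2_rods, and *Il3ra*, the alpha chain of the IL-3 receptor, 0.111 to 0.306 CPM. None of the 5 genes of this list passed the filter on low counts.

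Downstream of the receptors, 10 of 22 tested genes of JAK2-STAT5 signaling and its feedback were called in M1, all higher, where 14.1% of all genes were called (median log2FC of the list 0.69, of all genes -0.01). *Socs3*, a feedback inhibitor of cytokine receptors, went from 2.12 ± 0.202 to 66.5 ± 15.9 CPM (log2FC 4.99, SE 0.41, adjusted p = 2.07e-06 by edgeR), and *Myc*, a growth regulator, from 2.59 ± 0.249 to 22.8 ± 5.13 CPM. *Cish*, a direct target of STAT5, rose from 0.0655 ± 0.0657 CPM in M0 to 5.73 ± 2.48 CPM in M1 and 39.3 ± 8.54 CPM in M2. *Socs1* stood at 0.450 ± 0.0766 CPM in M0, 6.77 ± 4.59 CPM in M1 and 75.4 ± 63.0 CPM in M2. *Cish* and *Socs1* were the 2 called genes of this list in M2 (4.13% of all genes), with 0 to 3 over the alternatives. Both, and *Socs2* (0.302 CPM in M0), may have passed the filter on low counts only through groups where they were high. For such genes passing it already implies a difference, so the counts of this list in M1 and M2 cannot be set against these shares. With either microrod 0 were called, also by DESeq2 (5 genes had an unadjusted p below 0.05 with CaP_rods and 1 with SiO2_rods). Cytokines other than the colony-stimulating factors also act on these genes, and their part was not tested.

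Of 15 tested genes of CSF1R signaling, shedding and feedback, 1 was called in M1 by edgeR, the immediate early gene *Fos* (67.3 ± 6.06 against 27.7 ± 2.86 CPM), against 14.1% of all genes. DESeq2 called 3, and the count was 1 to 4 over the alternatives run. In M2, 3 were called (4.13% of all genes), all lower, namely *Fos* (6.48 ± 2.31 CPM), *Egr1* (11.1 ± 1.87 against 26.4 ± 3.94 CPM) and the ERK phosphatase gene *Dusp6* (36.8 ± 7.62 against 77.2 ± 7.33 CPM). DESeq2 called 5 in M2, and the count there was 1 to 5 over the alternatives. With CaP_rods and SiO2_rods, 0 were called by edgeR and by DESeq2 (unadjusted p below 0.05 in 1 and 0 genes).

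Among 12 transcription factors of the receptor genes, 5 were called in M1 (14.1% of all genes), 1 higher (*Cebpd*) and 4 lower. The lower ones included *Klf4* (2.99 ± 0.591 against 10.9 ± 1.70 CPM) and *Cebpa* (4.17 ± 0.719 against 9.17 ± 0.240 CPM). With CaP_rods 2 were called (0.654% of all genes), both lower, and 0 to 3 over the alternatives. In M2 1 was called (4.13% of all genes), *Cebpe* (40.8 ± 6.74 against 20.9 ± 3.57 CPM), with 0 to 3 over the alternatives. With SiO2_rods edgeR called 0 (5 at an unadjusted p below 0.05), whereas DESeq2 called 1. *Spi1*, which encodes PU.1, a factor of *Csf1r* and *Csf2ra* transcription, stood at 82.0 CPM in M0 and 115 CPM in M1 (log2FC 0.50, adjusted p = 0.323).

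Of 18 genes listed as dependent on GM-CSF in alveolar macrophages, 10 were tested, and *Pparg*, the central one, was at 0.481 CPM in M0 and not tested. The part of GM-CSF, or of other signals, in the levels of these genes here was not tested. In M1, 5 of the 10 were called higher and 1 lower (14.1% of all genes were called). *Marco*, among the 5, passed the filter on low counts through the M1 libraries alone, which already implies a difference. This count therefore cannot be set against that share. *Il1rn*, which encodes the interleukin-1 receptor antagonist, went from 12.8 ± 2.29 to 154 ± 1.08 CPM, *Fabp5*, a fatty acid binding protein gene, from 53.4 ± 4.03 to 137 ± 16.3 CPM and the scavenger receptor gene *Cd36* from 56.1 ± 10.8 to 103 ± 12.1 CPM. *Abcg1*, a cholesterol exporter gene, was lower, at 161 ± 79.7 against 404 ± 150 CPM. *Il1rn* was also the 1 gene called by edgeR with CaP_rods (66.9 ± 20.8 CPM, log2FC 2.41, SE 0.22, 0.654% of all genes called) and with SiO2_rods (39.3 ± 0.760 CPM, log2FC 1.64, SE 0.22, 0.264%). DESeq2 called 2 with each, and the alternatives gave 0 to 3 and 0 to 2. An unadjusted p below 0.05 was found for 6 genes with CaP_rods (median log2FC 0.59, all genes 0.06) and 3 with SiO2_rods (0.31, all genes -0.02). *Fabp5* was the 1 called in M2 (85.5 ± 11.6 CPM, 4.13% of all genes), with 0 to 1 over the alternatives.

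The 10 genes listed for factors that act on AU-rich elements or stem-loops of mRNA had 4 calls in M1, 3 higher and 1 lower, where 14.1% of all genes were called. *Zfp36*, which encodes tristetraprolin, was at 69.3 ± 30.1 against 12.9 ± 2.92 CPM and *Zc3h12a*, which encodes regnase-1, at 8.92 ± 0.572 against 2.25 ± 0.603 CPM, while *Zfp36l2* fell from 21.0 ± 10.3 to 10.2 ± 3.52 CPM. These changes were measured in the same M1 libraries in which *Csf2* and *Csf3*, with the pentamers shown above, were higher. In M2 *Zfp36l1* was called higher (55.8 ± 24.8 against 23.5 ± 2.61 CPM, 4.13% of all genes called), a count of 1 that ran from 0 to 2 over the alternatives. With the microrods edgeR and DESeq2 called 0 of the 10 genes (unadjusted p below 0.05 in 2 genes with CaP_rods and 1 with SiO2_rods).

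Of 14 genes of NF-kB, NFAT and AP-1 factors, with an NF-kB inhibitor among them, listed around the ligand genes, 4 were called in M1 (14.1% of all genes), all higher. *Nfkbia*, which encodes the NF-kB inhibitor, went from 268 ± 63.1 to 1176 ± 124 CPM, *Nfkbiz* from 4.5 ± 1.56 to 42.6 ± 3.34 CPM, *Nfkb2* from 14.4 ± 4.10 to 40.4 ± 13.2 CPM and *Rel* from 5.66 ± 0.579 to 10.1 ± 1.31 CPM. In M2, 2 were called lower (4.13% of all genes called), *Nfkbia* (173 ± 9.18 CPM) among them, with 0 to 3 over the alternatives. With CaP_rods, where *Csf1* was called, 0 of the 14 were called by edgeR or DESeq2, with 5 genes at an unadjusted p below 0.05 and a median log2FC of 0.26 against 0.06 over all genes. With SiO2_rods both tools also called 0, with 1 gene at an unadjusted p below 0.05 and a median of -0.07.

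Between CaP_rods and SiO2_rods, edgeR and DESeq2 called 0 genes of any of the 6 lists tested, and 0 to 2 genes of each had an unadjusted p below 0.05. Between M1 and M2, where edgeR called 16.1% of all genes, it called 11 of 22 genes of JAK2-STAT5 signaling, 5 of 15 of CSF1R signaling, 6 of 12 transcription factors and 8 of 10 GM-CSF-dependent genes. It also called 3 of 10 genes of the list on AU-rich elements and stem-loops and 4 of 14 NF-kB, NFAT and AP-1 genes. *Marco* (0.0227 CPM in M2) passed the filter on low counts through the M1 libraries alone, and *Socs2* (0.444 CPM in M2) may have. The counts of their lists therefore cannot be set against that share. *Cish* and *Socs1* were lower in M1 than in M2 (log2FC -2.79, SE 0.32, and -3.50, SE 0.70), whereas *Socs3* was higher (log2FC 4.24, SE 0.39), as were *Fos* (log2FC 3.32, SE 0.24) and *Il1rn* (log2FC 3.45, SE 0.23). *Klf4* (log2FC -2.52, SE 0.22) was lower.

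**Figure D5:**
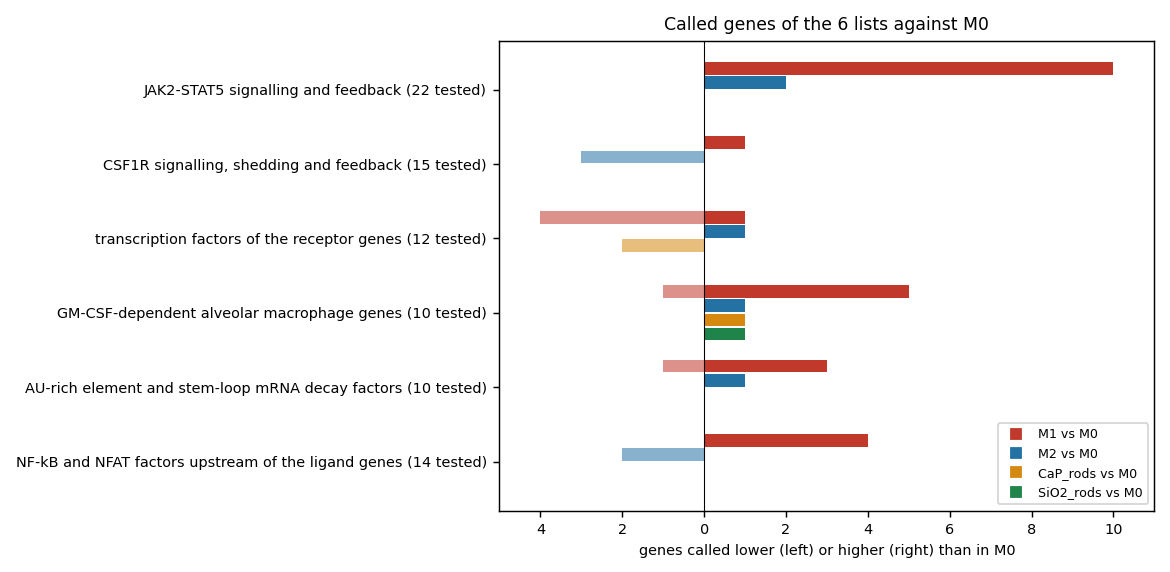
Number of called genes (x axis), higher to the right and lower to the left, for 6 gene lists around the receptors and ligands (y axis) in each comparison with M0, as coloured bars. M1 has calls in all 6 lists, with 10 higher in JAK2-STAT5 signaling, and the microrod groups have calls in 2 lists at most.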

How the data were processed

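RNA of 15 MH-S libraries was measured by Smart-seq2. The authors processed paired-end reads with nf-core/rnaseq (STAR, Salmon, genome GRCm39 per the submitters' processing notes) and deposited whole-number counts per Ensembl gene, without normalization or filter, which may be rounded Salmon estimates. All columns were matched to samples by name (0 were unused). Symbols, for 51487 of 78317 identifiers, exon lengths and untranslated regions came from GENCODE on GRCm38, and promoters, found for 5 of the 8 members, from RefSeq on GRCm38.p6. No coordinates of the authors' build were used.

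The main test was that of edgeR 4.0.16 in R 4.3.3 (filterByExpr, TMM, quasi-likelihood test, all 15 libraries in 5 groups, no block) and Benjamini-Hochberg adjustment over 16654 genes. Calls needed an adjusted p under 0.05 with an absolute log2FC over 0.5, the thresholds of the study, which used DESeq2 (here 1.42.0, an alternative). Replicate libraries differed by more than sampling noise (chi-square per gene 7.51 to 170). The smallest library holds 8459643 counts, where 3 counts, the floor used, are 0.347 CPM. Amplified cDNA without molecular identifiers makes intervals of counts cover counting error only. With 3 libraries against 3, an exact permutation test cannot go below p = 0.1, so p-values come from models across all genes.

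Same-numbered libraries of M1 and M0 deviated together from their group means (r = 0.292, 0.275 and 0.206), as in no other comparison for all 3 numbers, and no label ties a number to a batch. Correlations used log2 CPM with a prior count of 2. Named are all 8 members, up to 4 called genes per list and comparison with the largest change and at least 5 CPM in a group, and the 3 genes most like each member. Some genes that this rule names are not reported here. Members, lists and tests were chosen with earlier results of these data known. Tests were tried on simulated counts, and alternatives covered DESeq2, scaling, filters, legacy quasi-likelihood, a replicate block, the libraries in the model, thinning, summed *Csf2rb* genes and each library left out. Leaving out 3 libraries together was added after seeing the data.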

Additional observations from a re-analysis of the deposited data

How the results depend on the processing

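Of the calls in M1 against M0 (4 members), 3 were made with total counts (without *Csf1r*), with thinned counts (without *Csf2*) and with the *Csf2rb* genes summed, and fewer with at least 10 counts in every library (2, since *Csf2* and *Csf3* were then untested) and with only the 6 libraries compared (2, *Csf2* being untested and *Csf1r* no longer past the threshold), and of those in M1 against M2 (4), fewer with these settings (2 and 2) and with thinned counts (2), and 3 with total counts, legacy quasi-likelihood (both without *Csf1r*) and the *Csf2rb* genes summed. Without 1 library either comparison had 3 to 4. The *Csf1* call with CaP_rods against M0 (1) became 0 in the 6 libraries alone and with at least 10 counts in every library, where *Csf1* was untested. Between the microrods, DESeq2 and edgeR without a filter gave 1 call in place of 0, and leaving out 1 library gave 0 to 1. With a replicate block, the members called were 4 in M1 against M0, 0 in M2, 1 with CaP_rods, 0 with SiO2_rods, 0 between the microrods and 4 between M1 and M2, so the block changed no such count. In every comparison the labels give same-numbered samples only a shared number. Under the block all genes called fell from 109 to 59 with CaP_rods and from 44 to 19 with SiO2_rods.

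Over all genes, calls with CaP_rods were 109 with edgeR and 419 with DESeq2, with SiO2_rods 44 and 119, and between the microrods 3 and 14. Without a filter they were 968, 205 and 104, and 3394 in M1, 1141 in M2 (687 in the report) and 4407 between M1 and M2 (2679). Uncalled differences near 0 turned sign. *Csf1r* in M2 was 0.019 with the block and 0.10 without the 3 libraries that stand apart, and -0.24 to 0.094 without 1 library. *Csf2rb2* with SiO2_rods was 0.0042 with total counts as the scale, 0.078 with thinned counts and -0.16 to 0.16 without 1 library. *Csf3r* with SiO2_rods was 0.029 without the 3 libraries. Without 1 library, it was -0.70 to 0.048, *Csf3r* with CaP_rods -0.87 to 0.057 against M0 and -0.67 to 0.23 against SiO2_rods, *Csf1r* with CaP_rods -0.17 to 0.25, and *Csf2ra* between the microrods -0.090 to 0.41. Of the counts of called genes per list, 336 stayed within 1.5 times the reported count, 20 were lower and 22 higher. The 336 include counts of 0 that stayed 0, among them all those of the list of other ligands and chains, which had 0 tested genes. The cause of the changes given here was not tested. Genes with few counts, *Csf1*, *Csf2* and *Csf3r* among them, are limited by depth, and *Csf3r* rests on as few as 10 counts in a library.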
